A study of Mus musculus with 8 samples.

Results

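The axon guidance ligands and receptors were followed across 4 groups of mouse neural progenitor cells (NPC), as 69 genes of the 18842 that had a symbol on the array. The rule uses names alone, though the set was picked with earlier results of these data known. It takes Eph receptors (Epha, Ephb), ephrins (Efna, Efnb), semaphorins of classes 3 to 7, plexins, Robo and Unc5 receptors, Slit1 to Slit3, the netrins Ntn1, Ntn3 and Ntn4, the neuropilins Nrp1 and Nrp2, Dcc and Neo1. The names came from matching the accession of each probe to RefSeq, and the 69 genes had 104 probes. Unc50 and Unc5cl met the rule by their letters alone and are not netrin receptors. A gene was tested where 1 or more groups had it well above background on each of their arrays, which kept 58 of the 69. The other 11 were Dcc, Epha6, Epha8, Epha10, Ephb1, Plxnc1, Robo3, Robo4, Unc5a, Unc5d and Unc5cl, and 9 of them were well above background on 0 of 8 arrays. A gene that entered the test through the group where it is bright had reason to differ, so counts over the 58 describe those 58 only. The genes well above background on all 8 arrays numbered 50, and their counts of calls are given as well.

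All samples were N31 cells, a line of neural progenitors derived from mouse embryonic stem cells, and each of the 4 groups had 2 arrays. The groups were W20-expressing cells at 72 h after reprogramming was started, EGFP-expressing cells at 72 h, W20-expressing NPC and EGFP-expressing NPC. EGFP is a fluorescent protein and served as the control, and the study's design asks how forced W20 expression changes gene expression, in a series titled for the speeding of reprogramming by proteins from bacteria. What W20 is, beyond its name, is not given in the sources used here. The NPC were kept on gelatin with EGF and bFGF at 10 ng/ml each. The cells at 72 h, W20 and EGFP alike, had 48 h in NPC medium with 40 ng/ml of doxycycline (Dox). They then had 24 h with Dox at the same dose in a GMEM medium with 10% serum replacement (KSR), 1000 U/ml of the cytokine LIF, ACTH, pyruvate, amino acids and 2-mercaptoethanol. How W20 and EGFP were delivered is not given in the sources used here.

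Axon guidance proteins steer growing axons and migrating cells by attraction and repulsion at short and long range. Ephrins are membrane-bound ligands of the Eph receptor tyrosine kinases and can also signal back into the cell that carries them. Class 3 semaphorins are secreted and mostly act through neuropilins paired with plexins, while classes 4 to 7 are bound to membranes and mostly bind plexins directly. Slits repel through Robo receptors, and netrins attract through Dcc and neogenin and repel through Unc5 receptors. In the nervous system many of the same genes are used by neural progenitors, for example in sorting cells into domains and in the adhesion of radial glia.

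Total RNA was labelled with Cy3 and hybridised to a whole mouse genome array, 1 colour per array. On each array 57.0% to 62.4% of spots exceeded background clearly, and none was saturated. The 2 arrays of a group correlated at 0.999, with a median SD of 0.030 to 0.041 log2 units over 12155 genes. The labels do not say whether replicates were separate cultures, and the p-values therefore reflect the spread among these arrays alone, possibly a technical one. All NPC arrays lay on one slide and all 72 h arrays on another, each with its own scan, so the change over 72 h cannot be told apart from the slide. W20 was compared with EGFP within a slide, with the W20 arrays in positions 3 and 4 and the EGFP arrays in positions 1 and 2 on each, so that W20 and position cannot be told apart either. In bulk RNA such as this, fewer cells of a type and less RNA per cell cannot be told apart.

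Values below are the log2 signal minus the 75th percentile of the same array, so that 0 is a probe as bright as that percentile and 1 unit is a 2-fold step. They are set side by side only between arrays for the same probe, because probes differ in brightness. Differences are given ± their standard error (SE) from 1 limma fit over all 8 arrays, with 2 arrays per group. P-values were two-sided and adjusted by Benjamini and Hochberg's method over the 13617 genes tested, with a threshold of 0.05, and "rose" and "fell" are used only past it.

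The promoters of 4 members are shown because Epha3, Epha5 and Epha7 moved together in the data below and Sema7a moved the other way over time. Each is the 250 bases before the RefSeq start in build GRCm38.p6, on the strand of the gene. Capitals mark GGGCGG or its reverse complement CCGCCC, the core letters of a GC box, which Sp1 can bind.
Epha3, chr16:63864176-63864425, minus strand: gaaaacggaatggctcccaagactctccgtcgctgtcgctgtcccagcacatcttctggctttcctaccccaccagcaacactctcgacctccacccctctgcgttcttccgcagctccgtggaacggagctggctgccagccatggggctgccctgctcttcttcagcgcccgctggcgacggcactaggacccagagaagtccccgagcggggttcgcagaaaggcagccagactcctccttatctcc
Epha5, chr5:84417383-84417632, minus strand: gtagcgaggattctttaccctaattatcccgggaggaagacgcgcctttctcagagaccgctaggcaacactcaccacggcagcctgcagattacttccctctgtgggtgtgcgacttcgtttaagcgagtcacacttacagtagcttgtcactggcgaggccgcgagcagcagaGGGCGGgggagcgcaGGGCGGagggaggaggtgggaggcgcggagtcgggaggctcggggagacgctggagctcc
Epha7, chr4:28812881-28813130, plus strand: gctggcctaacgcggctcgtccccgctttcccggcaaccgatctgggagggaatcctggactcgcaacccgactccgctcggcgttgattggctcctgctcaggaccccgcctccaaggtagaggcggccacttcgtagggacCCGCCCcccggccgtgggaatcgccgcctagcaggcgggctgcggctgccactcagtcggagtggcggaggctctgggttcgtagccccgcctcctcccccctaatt
Sema7a, chr9:57939862-57940111, plus strand: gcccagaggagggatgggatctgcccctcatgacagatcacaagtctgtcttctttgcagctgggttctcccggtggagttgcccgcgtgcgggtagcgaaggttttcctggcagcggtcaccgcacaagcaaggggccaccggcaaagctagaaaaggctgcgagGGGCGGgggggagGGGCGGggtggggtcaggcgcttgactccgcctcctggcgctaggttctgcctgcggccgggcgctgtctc
The Epha3 window held no GGGCGG on either strand, the Epha7 window held 1, and the Epha5 and Sema7a windows held 2 each. Epha7 had 2 windows in the table, of which 1 is printed. Of the 69 genes, 59 were in the promoter table, with 74 windows. GGGCGG was in 53 of the 74 windows (71.6%), against 32.7% of all 32851 windows of the same length. TATAAA, the letters of a TATA box, was in 2 of the 74 (2.7%), against 12.4% of all windows. CACGTG, an E-box, was in 4 (5.41%), against 6.02%. The 3 motifs were searched on both strands, and none of them contains another. Among members lower in W20 NPC, 26 of 34 windows held GGGCGG, and among the other tested members 20 of 31. A match is a description of these letters and not of binding.

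In NPC, guidance genes were mostly lower with W20. Of the 58 tested genes, 33 were lower and 7 higher in W20 than in EGFP NPC, and 18 did not pass. Over all genes tested, 23.6% were called lower and 31.8% higher in this comparison, so calls among the guidance genes ran mostly lower and those among all genes more often higher. Their median difference was -0.35, against 0.04 over all genes. Of the 50 genes well above background on all 8 arrays, 30 were lower (60%) and 7 higher (14%). Of all 12155 genes that met the same condition, 23.5% were lower and 34.1% higher. Among the 58, at least 2-fold differences numbered 12, all lower, against 4.07% of all genes in either direction. Spike-in scaling left 2 higher and 31 lower, so that 6.06% of the guidance calls were higher, against 17.5% with the 75th percentile, and over all genes it left 37.1% of the calls higher, against 57.4%.

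At 72 h most called guidance genes were again lower with W20. In W20 cells 34 of the 58 were lower than in EGFP cells, 4 were higher and 20 did not pass, with a median of -0.30, against 0.03 over all genes. Over all genes 24.4% were called lower and 28.4% higher, and 53.8% of these calls were higher (36.8% under spike-in scaling). Spike-in scaling left 1 guidance gene higher. Of the 50 genes well above background on all arrays, 30 were lower (60%) and 4 higher (8%). Of all 12155 genes that met the same condition, 24.7% were lower and 30.1% higher. Only 6 of the 58 members differed at least 2-fold, each of them lower, against 3.34% of all genes. No array is used in both comparisons, but both take the spread of a gene from the same fit. The W20 arrays also had the same positions on both slides, so the 2 sets of calls are not independent. In both, 26 genes were lower, which is 26 of the 33 lower in NPC and 26 of the 34 lower at 72 h. Over all genes 13.5% were lower in both, which is 1843 of the 3220 lower in NPC and of the 3320 lower at 72 h. Plxna2 and Sema5b were higher in both, and Efnb2, Epha2 and Sema6b were higher in NPC and lower at 72 h. Over all genes 17.7% were higher in both, and 3.02% were higher in NPC and lower at 72 h. Spike-in scaling ended both calls of Sema5b (adjusted p = 0.145 in NPC and 0.378 at 72 h), and 6 alternatives ended its call at 72 h (adjusted p = 0.0692 to 0.378), among them leaving out EGFP 72 h replicate 1 or either W20 72 h array. The number lower with W20 was also counted by brightness. In NPC it was 22 of the 37 members whose mean signal was above -2 (59.5%) and 11 of the 21 below it (52.4%), against 23.2% and 24.8% of all genes. At 72 h it was 22 of 37 (59.5%) and 12 of 21 (57.1%), against 25.4% and 21.7% of all genes.

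**Figure D1:**
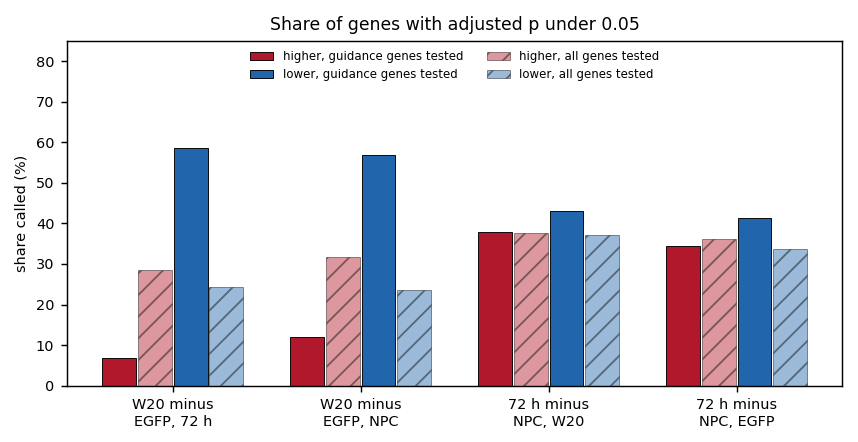
Share of genes, in percent, with an adjusted p under 0.05 in each of the 4 comparisons between groups. Solid bars are the 58 guidance genes tested and hatched bars all 13617 genes tested, red higher and blue lower in the group named before "minus". In the W20 comparisons 58.6% (72 h) and 56.9% (NPC) of the guidance genes were lower, against 24.4% and 23.6% of all genes. Over time the lower shares were 43.1% with W20 and 41.4% with EGFP, against 37.2% and 33.8% of all genes.

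Over 72 h guidance genes were called in both directions. With W20, 22 were higher (37.9%) and 25 lower (43.1%) at 72 h than in NPC, against 37.5% and 37.2% of all genes. With EGFP, 20 were higher (34.5%) and 24 lower (41.4%), against 36.1% and 33.8% of all genes. Calls of at least 2-fold with W20 numbered 20, with 17.2% of the members higher and 17.2% lower, against 8.68% and 9.13% of all genes (17.8% in all). With EGFP they numbered 15, with 10.3% higher and 15.5% lower, against 6.71% and 6.59% of all genes (13.3% in all). Of the 58 genes, 17 rose and 18 fell with both kinds of cell, and Ntn1 alone fell with EGFP and rose with W20. Over all genes 30.3% rose and 28.7% fell with both, and 1.18% fell with EGFP and rose with W20, so these counts were near those of all genes. Of the 50 genes well above background on all 8 arrays, 19 rose (38%) and 22 fell (44%) with W20. Of all 12155 genes that met the same condition, 38.1% rose and 37.9% fell. With EGFP 17 of the 50 rose (34%) and 22 fell (44%), against 36.9% and 34% of the 12155. The 2 comparisons over time share no array with each other, but they share the fit and the slides, and each shares its arrays with the W20 comparisons.

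**Figure D2:**
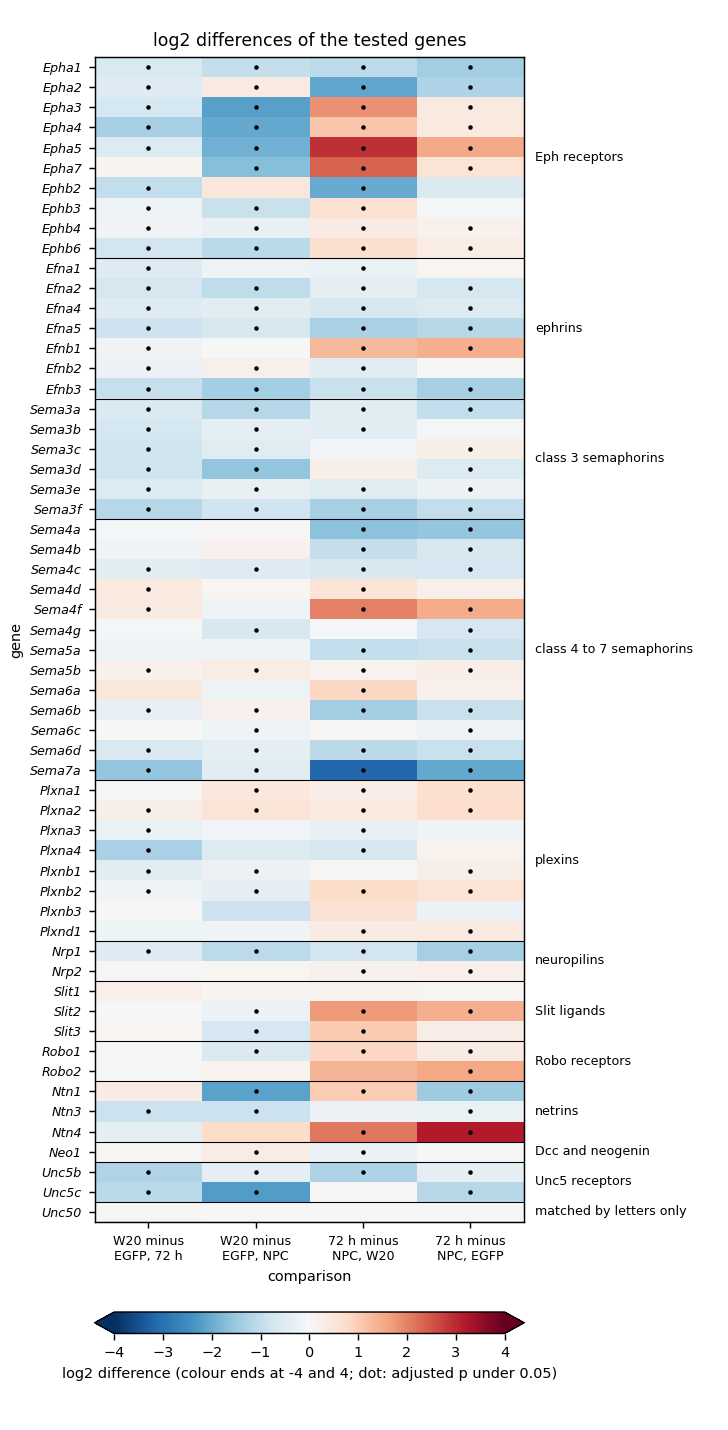
Heat map of the log2 difference of each of the 58 tested genes (rows, grouped by family) in the 4 comparisons (columns). Red is higher and blue lower in the group named before "minus", colours end at the marks of the colour bar, and a dot marks an adjusted p under 0.05. The W20 columns are mostly blue over the Eph receptors, ephrins and class 3 semaphorins, with Epha2, Ephb2, Efnb1 and Efnb2 in NPC and Epha7 at 72 h the exceptions, and Epha3, Epha4, Epha5 and Epha7 are blue in NPC and red over 72 h with W20.

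Most of the tested Eph receptors were lower with W20. Of 10 tested, 8 were lower and 1 (Epha2) higher in W20 than in EGFP NPC, with a median of -1.02. At 72 h 9 were lower and 0 higher by limma, also at an unadjusted p under 0.05, with a median of -0.58. Of the 6 tested EphA receptors 5 fell in W20 NPC, and of the 4 tested EphB receptors 3 fell. Beside these and the family counts below, 23.6% of all genes were lower and 31.8% higher in NPC, and 24.4% and 28.4% at 72 h.

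Epha3 is a receptor of ephrin-A ligands. It read -0.58 and -0.52 in W20 cells at 72 h, against 0.09 and 0.19 in EGFP cells at 72 h, and -2.30 and -2.49 in W20 NPC, against -0.37 and -0.07 in EGFP NPC. Both W20 NPC arrays lay far below the other 6. In NPC it fell by 2.17 ± 0.11 (4.51-fold, adjusted p = 1.10e-04), and at 72 h it fell by 0.70 ± 0.11 (adjusted p = 0.00403). Over 72 h it rose by 1.84 ± 0.11 with W20 (adjusted p = 2.65e-05) and by 0.36 ± 0.11 with EGFP (adjusted p = 0.0299). The rise with EGFP lost its call under 7 of the alternatives tried (adjusted p = 0.0525 to 0.124), 3 of them leaving out EGFP NPC replicate 1, EGFP 72 h replicate 1 or EGFP 72 h replicate 2. A second Epha3 probe gave -2.09 for W20 against EGFP in NPC and -0.62 at 72 h.

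Epha5, which also binds ephrin-A ligands and is known for its part in forming topographic maps, behaved alike. Its values were -2.38 and -2.04 in W20 cells at 72 h, against -1.69 and -1.66 in EGFP cells at 72 h, and -5.01 and -5.25 in W20 NPC, against -3.29 and -3.12 in EGFP NPC. All 4 groups were apart, the W20 NPC arrays lowest. It fell by 1.92 ± 0.14 in NPC (3.79-fold, adjusted p = 2.23e-04) and by 0.54 ± 0.14 at 72 h (adjusted p = 0.0192). The call at 72 h ended when either EGFP 72 h array or W20 72 h replicate 1 was left out and with the mean of the gene's probes (adjusted p = 0.0681 to 0.490). With W20 it rose by 2.91 ± 0.14 over 72 h (7.54-fold, adjusted p = 8.22e-06), and with EGFP by 1.53 ± 0.14 (adjusted p = 1.60e-04). The other Epha5 probe gave -1.23 in NPC and 1.12 over 72 h with W20, neither past the threshold, and -0.23 over 72 h with EGFP. At 72 h it gave 0.13 for W20 against EGFP, the opposite sign to the probe above, and did not pass (adjusted p = 0.835).

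Epha7, a further ephrin-A receptor, read 0.47 and 0.64 in W20 cells at 72 h, against 0.47 and 0.41 in EGFP cells at 72 h, and -1.79 and -1.80 in W20 NPC, against -0.24 and 0.04 in EGFP NPC. The W20 NPC arrays stood alone and the 72 h groups met. In NPC it fell by 1.69 ± 0.10 (3.24-fold, adjusted p = 1.49e-04), while at 72 h the difference was 0.11 ± 0.10 (adjusted p = 0.388). It rose by 2.35 ± 0.10 over 72 h with W20 (5.10-fold, adjusted p = 5.87e-06) and by 0.55 ± 0.10 with EGFP (adjusted p = 0.00372). The rise with EGFP did not pass with the mean of the gene's probes (adjusted p = 0.350). The other Epha7 probe gave -1.81 in NPC and -0.50 at 72 h, neither past the threshold.

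Epha4 binds ephrins of both classes. Its probe read -4.57 and -4.54 in W20 cells at 72 h, against -3.16 and -3.30 in EGFP cells at 72 h, and -5.63 and -5.71 in W20 NPC, against -3.43 and -3.79 in EGFP NPC, and it was not well above background on either W20 NPC array. A fold against such a dim group is a bound: the mean of the brighter group is set against, for each dim array, the lowest signal well above background or the probe's own signal if that is higher. Epha4 was at least 3.53-fold lower in W20 than in EGFP NPC (adjusted p = 1.41e-04). At 72 h it fell by 1.32 ± 0.12 (2.50-fold, adjusted p = 5.09e-04). Over 72 h the bound with W20 was a rise of at least 1.84-fold (adjusted p = 3.06e-04). With EGFP it rose by 0.38 ± 0.12 (adjusted p = 0.0299). That last call ended under 9 alternatives (adjusted p = 0.0504 to 0.144), among them leaving out EGFP NPC replicate 2 or any 1 of the 72 h arrays. Averaged with its dimmer second probe, Epha4 did not pass in NPC (adjusted p = 0.0555), at 72 h (adjusted p = 0.0677) or over 72 h with W20 (adjusted p = 0.115).

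Epha2, an ephrin-A receptor of epithelial and stem cells, went the other way in NPC. It read 0.79 and 0.79 in W20 cells at 72 h, against 1.33 and 1.30 in EGFP cells at 72 h, and 2.85 and 2.90 in W20 NPC, against 2.51 and 2.56 in EGFP NPC. In NPC the W20 arrays were the higher ones, and at 72 h they were the lower ones. It rose by 0.34 ± 0.034 with W20 in NPC (adjusted p = 6.33e-04), a call that ended with spike-in scaling (adjusted p = 0.110), and fell by 0.52 ± 0.034 at 72 h (adjusted p = 1.73e-04). Over 72 h it fell by 2.08 ± 0.034 with W20 (4.24-fold, adjusted p = 2.61e-07) and by 1.22 ± 0.034 with EGFP (adjusted p = 2.25e-06). Epha1, of the same class, read -2.70 and -2.92 in W20 cells at 72 h, against -2.15 and -2.23 in EGFP cells at 72 h, and -1.70 and -1.85 in W20 NPC, against -0.91 and -0.72 in EGFP NPC. It was lower with W20 at both stages and lower at 72 h with either protein, with no overlap between the groups. It fell by 0.96 ± 0.10 in NPC, by 0.62 ± 0.10 at 72 h, by 1.04 ± 0.10 over 72 h with W20 and by 1.38 ± 0.10 with EGFP (adjusted p from 7.66e-05 to 0.00411).

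Among the EphB receptors, which bind ephrin-B ligands, Ephb2 read -6.59 and -5.77 in W20 cells at 72 h, against -5.07 and -5.30 in EGFP cells at 72 h, and -4.16 and -4.18 in W20 NPC, against -4.66 and -4.58 in EGFP NPC, and it was not well above background on either W20 array at 72 h. The W20 arrays were the lowest at 72 h and the highest in NPC. Ephb2 was at least 2.05-fold lower at 72 h than in NPC with W20 (adjusted p = 6.33e-04). Against EGFP at 72 h the bound was only 1.01-fold (adjusted p = 0.0203), and the call ended with normexp, with the 4 arrays at 72 h alone and without either EGFP 72 h array (adjusted p = 0.0537 to 0.533). In NPC the difference was 0.45 ± 0.25 (adjusted p = 0.185). Ephb6, a receptor without kinase activity, read -1.38 and -1.42 in W20 cells at 72 h, against -0.71 and -0.65 in EGFP cells at 72 h, and -2.01 and -2.08 in W20 NPC, against -0.97 and -0.98 in EGFP NPC. Its W20 arrays were the lower ones at both stages. It fell by 1.07 ± 0.039 in NPC (2.10-fold, adjusted p = 5.68e-05) and by 0.72 ± 0.039 at 72 h (adjusted p = 1.14e-04). Ephb3 and Ephb4 fell with W20 in NPC by 0.90 ± 0.051 and 0.30 ± 0.039 and at 72 h by 0.21 ± 0.051 and 0.14 ± 0.039. The calls at 72 h ended under 4 and 8 alternatives (adjusted p = 0.0509 to 0.369), among them leaving out either EGFP 72 h array or W20 72 h replicate 1, and for Ephb4 also either W20 NPC array.

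**Figure D3:**
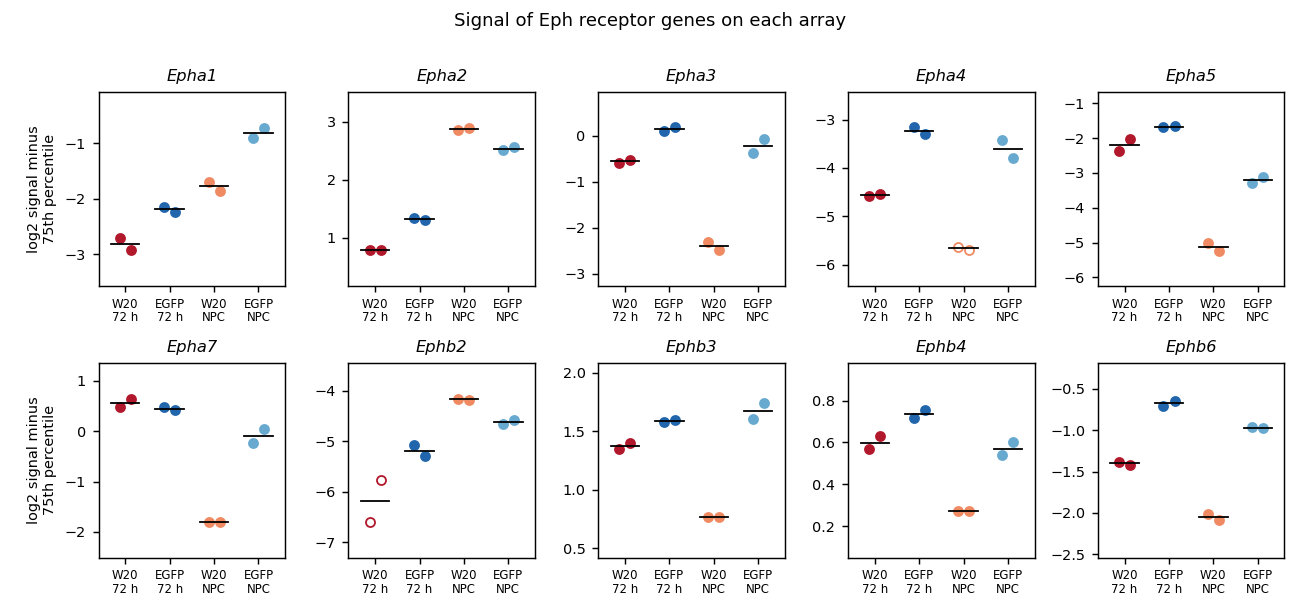
Signal of the 10 tested Eph receptor genes on each of the 8 arrays (log2 signal minus the 75th percentile of the array). Each point is an array, bars are means of 2 arrays, groups are named on the horizontal axis, and open points are probes not well above background on either array of the group. Vertical scales differ between genes. W20 NPC is the lowest group for Epha3, Epha4, Epha5, Epha7, Ephb3, Ephb4 and Ephb6, while Epha1, Epha2 and Ephb2 are lowest in W20 cells at 72 h.

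The ephrins, the ligands of these receptors, were lower with W20 as well. All 7 fell at 72 h (median -0.52), and in NPC 4 fell, Efnb2 rose and 2 did not pass (median -0.42). At 72 h none was higher by limma, also at an unadjusted p under 0.05. Efnb3, an ephrin-B of neural tissue, read -2.48 and -2.37 in W20 cells at 72 h, against -1.57 and -1.45 in EGFP cells at 72 h, and -1.52 and -1.54 in W20 NPC, against -0.23 and -0.13 in EGFP NPC. The W20 arrays lay below the EGFP arrays at each stage. It fell by 1.35 ± 0.063 in NPC (2.55-fold, adjusted p = 8.77e-05) and by 0.91 ± 0.063 at 72 h (adjusted p = 2.16e-04), and over 72 h by 0.89 ± 0.063 with W20 and by 1.33 ± 0.063 with EGFP (adjusted p = 4.56e-05 and 1.32e-05).

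Efna5, an ephrin-A that repels retinal axons in the midbrain, read 0.85 and 0.90 in W20 cells at 72 h, against 1.67 and 1.76 in EGFP cells at 72 h, and 2.21 and 2.11 in W20 NPC, against 2.77 and 2.86 in EGFP NPC. The 4 groups formed a ladder without overlap. Efna5 fell with W20 by 0.65 ± 0.054 in NPC and by 0.84 ± 0.054 at 72 h (adjusted p = 3.72e-04 and 1.78e-04), and over 72 h by 1.29 ± 0.054 with W20 and 1.10 ± 0.054 with EGFP (adjusted p = 5.67e-06 and 1.58e-05). Efna2 read -5.07 and -5.11 in W20 cells at 72 h, against -4.48 and -4.36 in EGFP cells at 72 h, and -4.74 and -4.73 in W20 NPC, against -3.69 and -3.74 in EGFP NPC, and on only 1 of the W20 arrays at 72 h was it well above background. The W20 arrays were again the lower ones. It fell by 1.02 ± 0.048 in NPC (2.03-fold, adjusted p = 8.87e-05) and by 0.67 ± 0.048 at 72 h (adjusted p = 2.51e-04), the second of which ended with normexp (adjusted p = 0.471).

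Efnb1, a ligand also used in the sorting of cells at boundaries, read 2.97 and 2.92 in W20 cells at 72 h, against 3.07 and 3.12 in EGFP cells at 72 h, and 1.66 and 1.65 in W20 NPC, against 1.64 and 1.64 in EGFP NPC. The stages were far apart and W20 and EGFP were close within each. It rose over 72 h by 1.29 ± 0.033 with W20 (2.44-fold, adjusted p = 9.30e-07) and by 1.46 ± 0.033 with EGFP (2.75-fold, adjusted p = 1.18e-06). With W20 at 72 h it fell by 0.15 ± 0.033 (adjusted p = 0.0112), which ended under 4 alternatives (adjusted p = 0.0523 to 0.302), among them leaving out EGFP 72 h replicate 2, and in NPC the difference was 0.019 ± 0.033 (adjusted p = 0.645). Efna4 fell with W20 by 0.42 ± 0.031 in NPC and 0.51 ± 0.031 at 72 h, and Efna1 by 0.52 ± 0.076 at 72 h, with -0.19 ± 0.076 in NPC (adjusted p = 0.0747). Efnb2 rose by 0.22 ± 0.059 in NPC and fell by 0.25 ± 0.059 at 72 h, calls that ended under 4 and 3 alternatives (adjusted p = 0.0532 to 0.390). Among them were leaving out EGFP NPC replicate 2 or either W20 NPC array for the NPC call, and EGFP 72 h replicate 1 or W20 72 h replicate 1 for the call at 72 h.

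All 6 class 3 semaphorins fell with W20 at both stages, with medians of -0.63 in NPC and -0.76 at 72 h and 0 higher by limma, also at an unadjusted p under 0.05. Sema3d, a secreted guidance cue, read -3.68 and -3.26 in W20 cells at 72 h, against -2.72 and -2.59 in EGFP cells at 72 h, and -3.83 and -3.55 in W20 NPC, against -2.27 and -1.96 in EGFP NPC. The W20 arrays were lower at both stages. It fell by 1.58 ± 0.18 in NPC (2.99-fold, adjusted p = 9.74e-04) and by 0.81 ± 0.18 at 72 h (adjusted p = 0.0124), the second ending without EGFP 72 h replicate 2 (adjusted p = 0.0629). Sema3a, the classic repellent of axons that bear neuropilin 1, read -2.52 and -2.45 in W20 cells at 72 h, against -1.91 and -1.90 in EGFP cells at 72 h, and -2.06 and -2.03 in W20 NPC, against -0.97 and -0.85 in EGFP NPC. EGFP NPC stood above the other 3 groups. It fell by 1.13 ± 0.050 in NPC (2.19-fold, adjusted p = 8.10e-05) and by 0.58 ± 0.050 at 72 h (adjusted p = 4.39e-04), and a second Sema3a probe gave -1.20 and -0.61.

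Sema3f, which acts through neuropilin 2, read -1.52 and -1.55 in W20 cells at 72 h, against -0.42 and -0.36 in EGFP cells at 72 h, and -0.19 and -0.20 in W20 NPC, against 0.57 and 0.63 in EGFP NPC. It stepped down both with W20 and with time, and no groups overlapped. With W20 it fell by 1.15 ± 0.037 at 72 h (2.22-fold, adjusted p = 3.83e-05) and by 0.80 ± 0.037 in NPC (adjusted p = 8.84e-05), and over 72 h by 1.34 ± 0.037 with W20 and 0.99 ± 0.037 with EGFP (adjusted p = 1.26e-06 and 6.01e-06). Sema3b read -0.09 and -0.10 in W20 cells at 72 h, against 0.59 and 0.65 in EGFP cells at 72 h, and 0.33 and 0.36 in W20 NPC, against 0.73 and 0.67 in EGFP NPC. Its W20 arrays were lower at both stages, more so at 72 h, where it fell by 0.72 ± 0.035 (adjusted p = 8.75e-05), against 0.35 ± 0.035 in NPC (adjusted p = 6.38e-04). Sema3c fell by 0.47 ± 0.046 in NPC and 0.81 ± 0.046 at 72 h and Sema3e by 0.28 ± 0.056 and 0.55 ± 0.056, and the NPC call of Sema3e ended with median and spike-in scaling (adjusted p = 0.0526 to 0.0645).

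The 13 membrane-bound or anchored semaphorins of classes 4 to 7 were mixed. In NPC 5 fell and 2 rose with W20, and at 72 h 4 fell and 3 rose. Over all genes 23.6% were lower and 31.8% higher in NPC, and 24.4% and 28.4% at 72 h. Sema7a, which is anchored by a lipid and signals through integrins and a plexin, read -0.96 and -0.97 in W20 cells at 72 h, against 0.55 and 0.59 in EGFP cells at 72 h, and 2.15 and 2.19 in W20 NPC, against 2.59 and 2.66 in EGFP NPC. No groups overlapped, and the W20 arrays at 72 h were far below all others. Over 72 h Sema7a fell by 3.13 ± 0.038 with W20 (8.78-fold, adjusted p = 1.47e-07) and by 2.06 ± 0.038 with EGFP (4.16-fold, adjusted p = 6.42e-07). With W20 it fell by 1.54 ± 0.038 at 72 h (2.90-fold, adjusted p = 2.12e-05) and by 0.46 ± 0.038 in NPC (adjusted p = 3.67e-04).

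Sema4f read -1.70 and -1.73 in W20 cells at 72 h, against -2.08 and -2.08 in EGFP cells at 72 h, and -3.76 and -3.72 in W20 NPC, against -3.68 and -3.46 in EGFP NPC. The 72 h arrays were higher with either protein. It rose over 72 h by 2.02 ± 0.073 with W20 (4.06-fold, adjusted p = 3.09e-06) and by 1.49 ± 0.073 with EGFP (adjusted p = 1.50e-05). With W20 it rose by 0.37 ± 0.073 at 72 h (adjusted p = 0.00813), a call that ended with spike-in scaling (adjusted p = 0.0818). Sema4a, known for its roles in immune cells and the retina, read -2.42 and -2.28 in W20 cells at 72 h, against -2.23 and -2.32 in EGFP cells at 72 h, and -0.75 and -0.67 in W20 NPC, against -0.74 and -0.70 in EGFP NPC. It split by stage and not by W20. It fell over 72 h by 1.64 ± 0.060 with W20 and 1.55 ± 0.060 with EGFP (adjusted p = 3.24e-06 and 6.35e-06), and W20 against EGFP gave -0.072 ± 0.060 at 72 h and 0.014 ± 0.060 in NPC, neither past the threshold.

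Sema6b and Sema6d, transmembrane ligands of A-class plexins, fell over time. Sema6b read -3.87 and -3.75 in W20 cells at 72 h, against -3.46 and -3.49 in EGFP cells at 72 h, and -2.42 and -2.42 in W20 NPC, against -2.60 and -2.56 in EGFP NPC. It was lower at 72 h with either protein, falling by 1.39 ± 0.045 with W20 (2.62-fold, adjusted p = 2.15e-06) and 0.89 ± 0.045 with EGFP (adjusted p = 1.69e-05). Its rise with W20 in NPC, by 0.16 ± 0.045, ended under 7 alternatives (adjusted p = 0.0554 to 0.595), 4 of them leaving out any 1 of the NPC arrays. Sema6d read -2.71 and -2.70 in W20 cells at 72 h, against -2.13 and -2.05 in EGFP cells at 72 h, and -1.57 and -1.65 in W20 NPC, against -1.31 and -1.12 in EGFP NPC. The 72 h arrays were lower than the NPC arrays, and the W20 arrays lower than the EGFP arrays at each stage. It fell over 72 h by 1.09 ± 0.069 with W20 and 0.88 ± 0.069 with EGFP (adjusted p = 2.91e-05 and 9.86e-05), and with W20 by 0.61 ± 0.069 at 72 h and 0.39 ± 0.069 in NPC. Among the rest, Sema4c fell with W20 by 0.52 ± 0.069 in NPC and 0.46 ± 0.069 at 72 h. Sema4d rose by 0.40 ± 0.080 at 72 h (adjusted p = 0.00856) and Sema4g fell by 0.63 ± 0.073 in NPC (adjusted p = 0.00106). The Sema6a probe used did not pass for W20 against EGFP at either stage. Another, well above background on 6 of 8 arrays, gave -2.30 in NPC and 0.88 at 72 h, so the W20 effect on Sema6a depends on the probe. Over 72 h with W20 both probes rose, by 0.82 and 3.01, the first losing its call without W20 NPC replicate 2.

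Of the semaphorin receptors, Nrp1, the co-receptor of Sema3a, read -3.00 and -3.00 in W20 cells at 72 h, against -2.57 and -2.41 in EGFP cells at 72 h, and -2.21 and -2.24 in W20 NPC, against -1.22 and -1.13 in EGFP NPC. EGFP NPC was the highest group and W20 cells at 72 h the lowest. It fell with W20 by 1.05 ± 0.061 in NPC (2.07-fold, adjusted p = 1.39e-04) and by 0.51 ± 0.061 at 72 h (adjusted p = 0.00128), and over 72 h by 0.78 ± 0.061 with W20 and 1.31 ± 0.061 with EGFP (adjusted p = 7.31e-05 and 1.23e-05). A second Nrp1 probe gave -0.92 in NPC and -0.051 at 72 h, where it did not pass (adjusted p = 0.729). Nrp2, the co-receptor of Sema3f, read 4.28 and 4.25 in W20 cells at 72 h, against 4.20 and 4.24 in EGFP cells at 72 h, and 4.11 and 4.09 in W20 NPC, against 4.05 and 4.00 in EGFP NPC. W20 and EGFP differed by 0.046 ± 0.035 at 72 h and 0.078 ± 0.035 in NPC, neither past the threshold.

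Of 8 tested plexins, the signalling receptors, 2 rose (Plxna1, Plxna2) and 2 fell (Plxnb1, Plxnb2) with W20 in NPC, and 1 rose and 4 fell at 72 h. Over all genes 31.8% were higher and 23.6% lower in NPC, and 28.4% and 24.4% at 72 h. Plxna3, at -0.26 at 72 h, lost its call under 10 alternatives. Plxna4, a partner of neuropilin 1, read -4.45 and -5.01 in W20 cells at 72 h, against -3.50 and -3.35 in EGFP cells at 72 h, and -3.96 and -4.23 in W20 NPC, against -3.72 and -3.40 in EGFP NPC, and on only 1 of 2 W20 arrays at 72 h was the probe well above background. The W20 arrays were the lowest at 72 h. It fell there by 1.30 ± 0.21 (2.47-fold, adjusted p = 0.00394), with a second probe at -0.57, and in NPC the difference was -0.53 ± 0.21 (adjusted p = 0.0768). Plxnb2, a plexin of class 4 semaphorins that acts in neural progenitors, read 3.09 and 3.21 in W20 cells at 72 h, against 3.29 and 3.36 in EGFP cells at 72 h, and 2.44 and 2.42 in W20 NPC, against 2.77 and 2.79 in EGFP NPC. It was higher at 72 h with either protein and lower with W20 at each stage. Over 72 h it rose by 0.72 ± 0.049 with W20 and 0.54 ± 0.049 with EGFP (adjusted p = 3.99e-05 and 1.75e-04), and fell with W20 by 0.36 ± 0.049 in NPC (adjusted p = 0.00196) and by 0.18 ± 0.049 at 72 h (adjusted p = 0.0272), the last ending under 4 alternatives (adjusted p = 0.0839 to 0.260), among them leaving out EGFP 72 h replicate 2 or W20 72 h replicate 1. Plxna1 and Plxna2 rose with W20 in NPC by 0.43 ± 0.049 and 0.52 ± 0.044, while a second Plxna1 probe gave 0.12 there and did not pass (adjusted p = 0.133).

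Slit2 and Slit3 rose over time with W20, and Slit2 with EGFP too. Slit2, a secreted repellent, read 2.08 and 2.28 in W20 cells at 72 h, against 2.11 and 2.25 in EGFP cells at 72 h, and 0.46 and 0.49 in W20 NPC, against 0.69 and 0.73 in EGFP NPC. The 72 h arrays stood clear above the NPC arrays, while the W20 and EGFP arrays overlapped at 72 h. It rose over 72 h by 1.71 ± 0.076 with W20 (3.27-fold, adjusted p = 7.01e-06) and by 1.47 ± 0.076 with EGFP (2.76-fold, adjusted p = 1.88e-05), and a second probe gave 1.66 and 1.55. With W20 in NPC it fell by 0.24 ± 0.076 (adjusted p = 0.0398), a call that ended under 6 alternatives (adjusted p = 0.0769 to 0.144), 4 of them leaving out any 1 of the NPC arrays. Slit3 read -3.09 and -3.06 in W20 cells at 72 h, against -3.28 and -3.05 in EGFP cells at 72 h, and -4.19 and -4.05 in W20 NPC, against -3.54 and -3.33 in EGFP NPC. Its W20 NPC arrays were the lowest. It rose over 72 h with W20 by 1.05 ± 0.10 (adjusted p = 1.93e-04), and with W20 it fell by 0.69 ± 0.10 in NPC (adjusted p = 0.00253), with 0.091 ± 0.10 at 72 h.

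Robo1, a main receptor of Slits, read 0.66 and 0.72 in W20 cells at 72 h, against 0.74 and 0.80 in EGFP cells at 72 h, and -0.22 and -0.06 in W20 NPC, against 0.44 and 0.45 in EGFP NPC. W20 NPC was again the lowest group. Over 72 h it rose by 0.83 ± 0.061 with W20 (adjusted p = 5.55e-05) and 0.33 ± 0.061 with EGFP (adjusted p = 0.00400), and in NPC it fell by 0.59 ± 0.061 with W20 (adjusted p = 7.20e-04). Robo2 read -4.17 and -4.19 in W20 cells at 72 h, against -4.22 and -4.00 in EGFP cells at 72 h, and -6.43 and -4.63 in W20 NPC, against -5.84 and -5.48 in EGFP NPC, with 1 of 2 arrays in each NPC group well above background and its W20 NPC arrays far apart. It rose over 72 h with EGFP by 1.54 ± 0.55 (adjusted p = 0.0461), a call that ended under 8 alternatives (adjusted p = 0.0737 to 0.163), 6 of them leaving out any of the EGFP or W20 72 h arrays or either EGFP NPC array. The tested probe entered the test only through the 72 h groups, so a rise over time was partly built in. Another Robo2 probe, well above background on 6 of 8 arrays, rose over 72 h by 1.54 with EGFP (adjusted p = 7.54e-05) and by 3.50 with W20 (adjusted p = 2.30e-06). With W20 the tested probe gave 1.35 over 72 h and did not pass. For W20 against EGFP in NPC the other probe gave -1.92 (adjusted p = 1.67e-04), where the tested probe gave 0.13 ± 0.55 (adjusted p = 0.862). Without W20 NPC replicate 1 it gave 1.03 in NPC, and without W20 NPC replicate 2 it gave -0.78. Robo2 is therefore left without a direction for W20.

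Of the netrin system, Ntn1, the founding secreted netrin, read -4.12 and -4.31 in W20 cells at 72 h, against -4.69 and -4.38 in EGFP cells at 72 h, and -4.96 and -5.51 in W20 NPC, against -3.13 and -3.08 in EGFP NPC, well above background on 1 of the 2 W20 NPC arrays. EGFP NPC was the highest group and W20 NPC the lowest, and the groups at 72 h lay between them. It fell with W20 in NPC by 2.13 ± 0.20 (4.37-fold, adjusted p = 4.93e-04), and at 72 h the difference was 0.32 ± 0.20 (adjusted p = 0.212). Over 72 h it rose by 1.02 ± 0.20 with W20 (adjusted p = 0.00393) and fell by 1.43 ± 0.20 with EGFP (adjusted p = 0.00102). A dimmer second probe, well above background on 2 of 8 arrays, gave -1.90 in NPC and -1.74 over 72 h with EGFP. Over 72 h with W20 it gave 0.66 (adjusted p = 0.122) and at 72 h 0.50 (adjusted p = 0.262), neither past the threshold.

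Ntn3 read -2.39 and -2.14 in W20 cells at 72 h, against -1.44 and -1.41 in EGFP cells at 72 h, and -1.97 and -2.10 in W20 NPC, against -1.19 and -1.13 in EGFP NPC. The W20 arrays were the lower ones at each stage. It fell with W20 by 0.87 ± 0.090 in NPC and by 0.85 ± 0.090 at 72 h (adjusted p = 6.93e-04 and 8.58e-04). Ntn4, a netrin of basement membranes, read -5.10 and -4.95 in W20 cells at 72 h, against -4.86 and -4.48 in EGFP cells at 72 h, and -7.75 and -6.52 in W20 NPC, against -7.83 and -7.88 in EGFP NPC, and 0 of the 4 NPC arrays and 1 of the 2 W20 arrays at 72 h had it well above background. It was brighter at 72 h with either protein, at least 1.33-fold with W20 (adjusted p = 0.00317) and at least 1.95-fold with EGFP. Ntn4 entered the test only through EGFP cells at 72 h, where it was brightest. The difference with EGFP was thus partly built in, and its p-value is not given.

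Unc5c, a netrin receptor of repulsion, read -4.15 and -3.93 in W20 cells at 72 h, against -3.05 and -2.91 in EGFP cells at 72 h, and -4.09 and -4.12 in W20 NPC, against -2.02 and -1.73 in EGFP NPC. Both W20 groups were at about the same signal and both EGFP groups above them. With W20 it fell by 2.23 ± 0.12 in NPC (4.68-fold, adjusted p = 1.10e-04) and by 1.06 ± 0.12 at 72 h (2.09-fold, adjusted p = 9.64e-04), and over 72 h by 1.10 ± 0.12 with EGFP (adjusted p = 3.33e-04). With W20 the change over 72 h was 0.061 ± 0.12 (adjusted p = 0.654). Unc5b, of the same family and also active in vessels, read 0.30 and 0.18 in W20 cells at 72 h, against 1.43 and 1.44 in EGFP cells at 72 h, and 1.53 and 1.40 in W20 NPC, against 1.76 and 1.91 in EGFP NPC. The W20 arrays at 72 h stood below the other 6. It fell with W20 by 1.20 ± 0.072 at 72 h (2.29-fold, adjusted p = 1.49e-04) and by 0.37 ± 0.072 in NPC (adjusted p = 0.00694), and over 72 h by 1.23 ± 0.072 with W20 (adjusted p = 2.21e-05) and 0.40 ± 0.072 with EGFP (adjusted p = 0.00339).

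Neo1, neogenin, read 1.92 and 1.98 in W20 cells at 72 h, against 1.87 and 1.97 in EGFP cells at 72 h, and 2.22 and 2.19 in W20 NPC, against 1.87 and 1.91 in EGFP NPC. W20 NPC was the highest group. It rose by 0.31 ± 0.046 with W20 in NPC (adjusted p = 0.00250), a call that ended with spike-in scaling (adjusted p = 0.131). At 72 h the difference was 0.034 ± 0.046 (adjusted p = 0.564), and a second Neo1 probe gave -0.055 in NPC, which did not pass (adjusted p = 0.259). Dcc, its paralogue, did not enter the test. Unc50, matched by its letters only, read 3.28 and 3.24 in W20 cells at 72 h, against 3.21 and 3.24 in EGFP cells at 72 h, and 3.25 and 3.23 in W20 NPC, against 3.22 and 3.26 in EGFP NPC, and none of its differences passed.

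**Figure D4:**
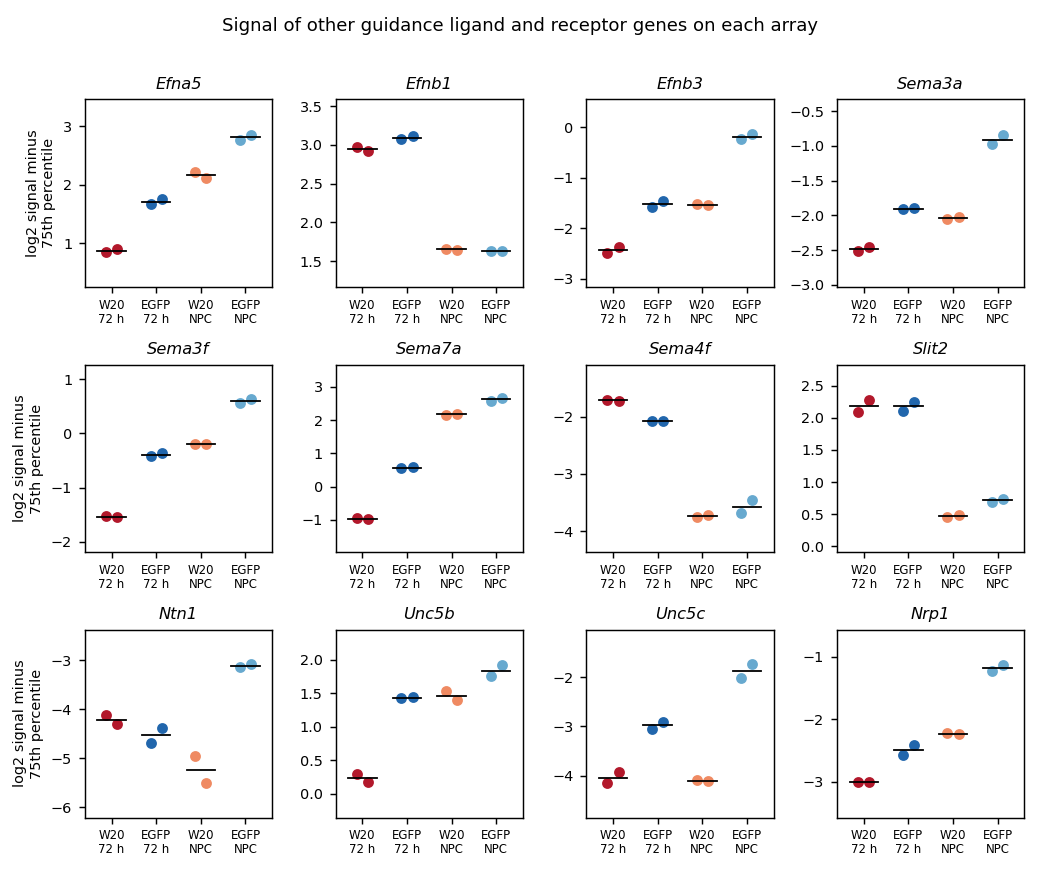
Signal of 12 other guidance ligand and receptor genes on each of the 8 arrays (log2 signal minus the 75th percentile of the array). Each point is an array and bars are means of 2 arrays, with vertical scales that differ between genes. Sema7a is at -0.96 and -0.97 in W20 cells at 72 h and between 2.15 and 2.66 in NPC, Efnb1 and Slit2 split by stage, and Unc5c splits by W20.

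The W20 effect itself was compared between the stages as 72 h minus NPC. The effect was higher at 72 h for 17 of the 58 genes and lower for 13, against 13.9% and 16.9% of all genes. Of the 50 genes well above background on all 8 arrays, 14 had a higher effect (28%) and 12 a lower one (24%). Of all 12155 genes that met the same condition, these shares were 13.8% and 17.5%. With spike-in scaling 11 and 4 of the 58 passed, so that 73.3% of the calls were higher, against 56.7% with the 75th percentile. Over all genes this share moved the same way, to 54.3% with spike-in scaling from 45.2% with the 75th percentile. With 1 probe per gene, Ntn1 differed most of the 58 in the main fit, by 2.45 ± 0.28 (adjusted p = 0.00224). With normexp Ntn1 gave 1.10, below Epha7 at 1.58 and Epha3 at 1.17, so its rank depends on the processing. The W20 effect on Ntn1 was 0.32 at 72 h, against -2.13 in NPC, where 1 of the 2 W20 arrays had it well above background. The Sema6a probe not used for the test differed by more, 3.18 (adjusted p = 0.00137), while the tested Sema6a probe gave 0.65 and did not pass. Among the Eph receptors that fell in W20 NPC, Epha7 differed by 1.80 ± 0.14, Epha3 by 1.48 ± 0.16 and Epha5 by 1.39 ± 0.19 (adjusted p from 7.53e-04 to 0.00436). With normexp Epha5 differed by only 0.51 (adjusted p = 0.0473). Unc5c differed by 1.16 ± 0.16 (adjusted p = 0.00476) and Slit3 by 0.78 ± 0.14 (adjusted p = 0.0118). Epha7 lost its call with the mean of its probes (adjusted p = 0.151). Epha4 differed by 0.73 ± 0.17 (adjusted p = 0.0247), but its probe was not well above background on either W20 NPC array, so the NPC effect behind this value is only bounded. The call of Epha4 rests on 1 probe: the second gave -0.59, the opposite sign (adjusted p = 0.774), and the mean of both gave 0.07 (adjusted p = 0.949). It ended under 8 alternatives (adjusted p = 0.0543 to 0.949), among them leaving out either W20 NPC array, EGFP 72 h replicate 2 or either W20 72 h array, and with normexp its difference was 0.24.

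In the other direction, Sema7a at -1.08 ± 0.054 (adjusted p = 2.47e-04), Epha2 at -0.86 ± 0.048 (adjusted p = 2.89e-04) and Unc5b at -0.82 ± 0.10 (adjusted p = 0.00305) had lower W20 effects at 72 h. Ephb2 differed by -1.44 ± 0.36 (adjusted p = 0.0305), with a probe that was not well above background on either W20 72 h array, so that the size is not known. With normexp it was -0.15 (adjusted p = 0.531), and 8 alternatives ended its call (adjusted p = 0.0621 to 0.531), 6 of them leaving out any NPC array, EGFP 72 h replicate 1 or EGFP 72 h replicate 2. Of the class 3 semaphorins, Sema3a had a higher effect at 72 h, by 0.56 ± 0.071 (adjusted p = 0.00328). The effects of Sema3b, Sema3c and Sema3f were lower there, at -0.37 ± 0.050, -0.33 ± 0.065 and -0.35 ± 0.053 (adjusted p = 0.00423, 0.0144 and 0.00582). With spike-in scaling these 3 calls ended (adjusted p = 0.252, 0.384 and 0.291). The call of Sema3c also ended with normexp, at -0.16 (adjusted p = 0.177), and without EGFP 72 h replicate 1 (adjusted p = 0.0517).

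**Figure D5:**
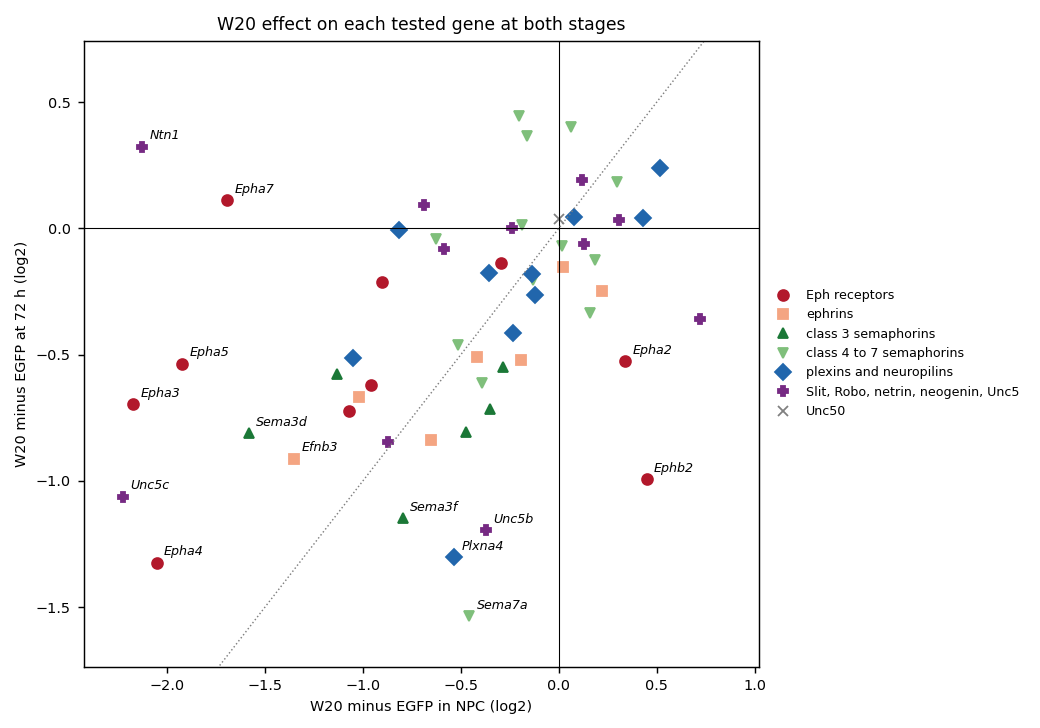
W20 minus EGFP difference (log2) of each of the 58 tested genes at 72 h (vertical axis) and in NPC (horizontal axis), with symbols by family and a dotted line where both are equal. Most points lie at the lower left, lower with W20 at both stages. Ntn1 (0.32 at 72 h and -2.13 in NPC) and Epha7 (0.11 and -1.69) lie above it, and Ephb2 (-0.99 and 0.45) and Epha2 (-0.52 and 0.34) to its right.

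Signalling genes of the pathway were called in both directions. From a list of 76 genes of guidance signalling and adhesion, 70 were tested. In NPC 20 were higher (28.6%) and 22 lower (31.4%) with W20, against 31.8% and 23.6% of all genes, with a median of 0.02, against 0.04 over all genes. At 72 h 17 were higher (24.3%) and 22 lower (31.4%), against 28.4% and 24.4% of all genes, with a median of 0.05, against 0.03. Over 72 h 31 rose (44.3%) and 30 fell (42.9%) with W20, against 37.5% and 37.2% of all genes, and 26 rose (37.1%) and 23 fell (32.9%) with EGFP, against 36.1% and 33.8%.

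In W20 NPC the highest were Ngef (ephexin, which binds Epha4) at 1.21 ± 0.062, the Slit-Robo GTPase-activating protein Srgap1 at 0.90 ± 0.069 and the actin regulator Enah at 0.70 ± 0.033. The lowest were Chn2, a Rac-inactivating chimaerin, at -1.37 ± 0.11, Flrt2, a ligand of Unc5 receptors, at -1.34 ± 0.059 and Rnd3 at -1.19 ± 0.059 (adjusted p from 8.07e-05 to 3.03e-04 for these 6). At 72 h the highest with W20 were the adhesion molecule Chl1 at 1.61 ± 0.20, the collapsin response protein Dpysl5 at 0.90 ± 0.10 and Srgap1 at 0.82 ± 0.069. The lowest were Grip1, which binds Eph receptors and ephrin-B, at -1.19 ± 0.12, Crmp1 at -1.18 ± 0.065, which relays Sema3a signals, and the actin-binding Ablim1 at -0.69 ± 0.037 (adjusted p from 1.13e-04 to 0.00141 for these 6).

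Over 72 h Chl1 rose by 4.99 ± 0.20 with W20 and 4.06 ± 0.20 with EGFP, though in EGFP NPC only 1 of 2 arrays had it well above background. Rtn4r, the Nogo receptor, cleared background on 0 of the 4 NPC arrays and was at least 4.53-fold higher at 72 h with W20 and at least 2.53-fold higher with EGFP. It entered the test only through the 72 h groups, so a rise was partly built in. Chn2 rose by 3.46 ± 0.11 with W20, and Srgap1 by 2.96 ± 0.069 with EGFP. Grip1, Gpc1, a glypican that binds Slit, and Vav3 were the lowest over time. They fell by 1.29 ± 0.12, 1.20 ± 0.057 and 1.18 ± 0.034 with W20 and by 0.73 ± 0.12, 0.72 ± 0.057 and 1.31 ± 0.034 with EGFP. The adjusted p of these changes over time, Rtn4r aside, ranged from 1.33e-06 to 0.00200.

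Mesenchymal markers at both stages, and astrocyte markers in NPC, were mostly lower with W20, as the guidance genes were. The sums that follow add, over all tested markers of a list on each array, the signal relative to the 75th percentile of the array, on a linear scale, dim markers included. Beside the counts of all these lists, 31.8% of all genes were higher and 23.6% lower with W20 in NPC, and 28.4% and 24.4% at 72 h. Of 9 mesenchymal markers, such as Col1a1 and Postn, 8 fell with W20 at each stage, the exception being Acta2 in NPC and Lum at 72 h. Their summed signal was 116 to 118 in W20 cells at 72 h, against 165 to 167 in EGFP cells, and 122 to 124 in W20 NPC, against 169 to 190 in EGFP NPC. Well above background on both arrays were 7 of them in W20 cells at 72 h, 8 in EGFP cells at 72 h, 8 in W20 NPC and 9 in EGFP NPC. Of 5 tested astrocyte markers 3 fell with W20 in NPC, with sums of 11.5 to 11.8, against 22.5 to 24.1 in EGFP NPC, and at 72 h 2 rose and 2 fell. In EGFP NPC 5 of them were well above background on both arrays, and 4 in each of the other 3 groups. The part of both lists in the drop of the guidance genes was not tested.

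Neuronal markers were few: 5 of 9 were tested, and Dcx, Syp, Snap25 and Neurod1 were not. With W20 3 rose and 0 fell at 72 h by limma, with 0 lower also at an unadjusted p under 0.05, and in NPC 2 rose and 1 fell. Their sums were 6.66 to 6.93 in W20 cells at 72 h, against 5.03 to 5.32 in EGFP cells, and 1.34 to 1.35 in W20 NPC, against 1.63 to 1.77 in EGFP NPC. Markers well above background on both arrays numbered 4 in W20 cells at 72 h, 5 in EGFP cells at 72 h and 3 in each NPC group. Over 72 h 4 of the 5 rose with W20 and 3 with EGFP, against 37.5% and 36.1% of all genes. Of 15 neural progenitor markers 14 were tested, Olig2 being the exception. On both arrays of a group 12 were well above background in W20 cells at 72 h, 14 in EGFP cells at 72 h, 10 in W20 NPC and 11 in EGFP NPC. With W20 3 rose (21.4%) and 3 fell (21.4%) at 72 h, against 28.4% and 24.4% of all genes. In NPC 2 rose (14.3%) and 4 fell (28.6%), against 31.8% and 23.6% of all genes. The sums of these markers were 148 to 152 in W20 cells at 72 h, against 146 to 164 in EGFP cells, and 154 to 167 in W20 NPC, against 137 to 148 in EGFP NPC. Of 7 pluripotency markers 3 were tested (Pou5f1, Nanog, Dppa4 and Tdgf1 were not), of which 3 fell with W20 in NPC and 2 fell and 1 rose at 72 h. Of 6 endothelial markers 3 were tested (Pecam1, Cdh5 and Emcn were not), of which 1 fell in NPC and 2 fell and 1 rose at 72 h. Of 7 oligodendrocyte lineage markers 5 were tested (Mog and Olig1 were not), of which 2 fell and 1 rose in NPC and 1 fell and 2 rose at 72 h.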

How the data were processed

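RNA of 8 samples in 4 groups of 2 was measured on 1-colour arrays. The authors' scanner files hold background-subtracted intensity per spot, which per the file headers came from Feature Extraction 10.7.3.1. From these intensities, outlier and control spots were left out, log2 was taken, each array's 75th percentile was subtracted and spots of a probe were averaged. Symbols came from RefSeq by unversioned accession for 27584 of 41174 probes, and 13590 had none. The probe with the highest mean signal stood for a gene.

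The deposited value table holds log2 values in the direction of signal, centred near the 75th percentile. Column medians were -3.91 and -3.83 (W20, 72 h), -3.88 and -3.77 (EGFP, 72 h), -3.82 and -3.78 (W20 NPC) and -3.78 and -3.73 (EGFP NPC). In NPC, 100.0% of probes were within 0.01 of their own array after a shift, but the columns of replicate 1 at 72 h equalled the mean of the NPC columns within 0.001. In the columns of replicate 2 at 72 h only 14.1% (EGFP) and 6.76% (W20) of probes were within 0.01 of their own array. The table was therefore used for NPC alone.

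Genes that 1 or more groups showed well above background on each array were fitted together with limma 3.58.1 (R 4.3.3), lmFit and eBayes, for 5 contrasts over 13617 genes. Tests were checked on simulated data, and figures drawn with matplotlib 3.10.9. The normexp alternative used median spot signals. Precision is limited by the number of arrays. The genes and lists were chosen with earlier results of these data known. Genes given in full were those called with a log2 difference of at least 1 either way between groups and the brightest of each family, and 3 each way per comparison from the pathway list.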

Additional observations from a re-analysis of the deposited data

Results flagged for a closer look

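For 30 guidance genes the difference between W20 and EGFP at 72 h differed from that in NPC by limma's test of the difference itself, at an adjusted p under 0.05. Of the 58 tested, 29.3% had a higher effect at 72 h and 22.4% a lower one, against 13.9% and 16.9% of all genes. The values are the W20 effect at 72 h minus that in NPC, in log2 units. Among Eph receptors they were -1.44 for Ephb2, -0.86 for Epha2, 0.35 for Ephb6, 0.69 for Ephb3, 0.73 for Epha4, 1.39 for Epha5, 1.48 for Epha3 and 1.80 for Epha7. Among ephrins they were -0.47 for Efnb2, -0.17 for Efnb1, 0.35 for Efna2 and 0.44 for Efnb3. The Ephb2 probe was not well above background on either W20 72 h array, and with normexp it gave -0.15 (adjusted p = 0.531). The Epha4 probe was not well above background on either W20 NPC array, and the mean of both Epha4 probes gave 0.07 (adjusted p = 0.949). The Efnb1 call ended under 12 alternatives, and the Epha7 call ended with the mean of its probes (adjusted p = 0.151). With normexp Epha5 gave 0.51 (adjusted p = 0.0473).

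The semaphorins gave -1.08 for Sema7a, -0.49 for Sema6b, -0.37 for Sema3b, -0.35 for Sema3f, -0.33 for Sema3c, 0.20 for Sema6c, 0.53 for Sema4f, 0.56 for Sema3a and 0.59 for Sema4g. Their receptors gave -0.39 for Plxna1, -0.28 for Plxna2 and 0.54 for Nrp1. The netrin and Slit systems gave -0.82 for Unc5b, -0.28 for Neo1, 0.51 for Robo1, 0.78 for Slit3, 1.16 for Unc5c and 2.45 for Ntn1. The Ntn1 probe was well above background on 1 of the 2 W20 NPC arrays, and with normexp it gave 1.10. The Sema6c call ended under 12 alternatives, and its other probe gave -0.024, the opposite sign (adjusted p = 0.935). The Neo1 call ended under 8, and its other probe gave -0.088 and did not pass (adjusted p = 0.267). The other Plxna1 probe gave -0.13 and did not pass either (adjusted p = 0.312). Of the 30 calls, 12 held under every alternative that was run for them.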

How the results depend on the processing

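Among the 18 alternatives, 8 of which leave out 1 array, a block for slide could not be fitted, as each stage lies on 1 slide. Calls that held under every alternative run were 30 of 40 for W20 in NPC, 23 of 38 for W20 at 72 h, 37 of 47 over time with W20, 30 of 44 over time with EGFP and 12 of 30 for the difference. Spike-in scaling gave 2 guidance genes higher in NPC, 1 at 72 h, 13 over time with EGFP, and 11 higher and 4 lower for the difference. Over all genes the higher share of calls under it was 37.1% in NPC and 36.8% at 72 h. It was 47.9% over time with EGFP and 54.3% for the difference. Without a filter on dim probes, which brought all 69 members into the test, 9 were higher at 72 h. Over all 18842 genes 64.5% of the calls were then higher, against 53.8% with the filter. With 1 array left out, W20 NPC gave 5 to 8 higher and 32 to 34 lower, W20 at 72 h 3 to 5 and 26 to 34, time with W20 21 to 23 and 23 to 25, time with EGFP 16 to 20 and 20 to 25, and the difference 14 to 19 and 9 to 14. Efna2 over 72 h with W20 was 0.018 with normexp (adjusted p = 0.868), against -0.35, and Robo2 with W20 in NPC, at 0.13, ranged between -0.78 (without W20 NPC replicate 2, adjusted p = 0.0214) and 1.03 (without replicate 1). The causes were not tested. With the replicate block, higher and lower calls were 7 and 33 in NPC, 4 and 34 at 72 h, 24 and 24 over time with W20, 21 and 23 with EGFP and 18 and 13 for the difference. Same-numbered arrays had correlated deviations of -0.091 to 0.15, so the numbers were not taken as pairs.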
